A study of Mus musculus with 6 samples.

Results

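The transcripts described here are those of 8 genes of the bone marrow niche, measured in tibial cartilage: Cxcl12, Cxcr4, Kitl, Lepr, Foxc1, Ebf3, Angpt1 and Il7. They were chosen by name, with earlier results of the same comparison known, so their differences between the groups are given as a description without a test. Among the 55681 probes of the array that are not controls, 12 carried an accession of 1 of these genes. Of these 12 probes, 10 passed the filter on dim probes, and 7 of the 8 genes were among the 25494 features tested. The 6 samples were RNA from tibial cartilage of 3 mice labelled ADAM10 flox/flox-Col2a1-Cre (called mutants) and 3 mice labelled control, all of the strain C57BL/6. The label control does not say which alleles or Cre those mice carried, and ages were not given in the sources used here. In the mutants Cre recombinase was driven by the Col2a1 promoter, active in chondrocytes and their precursors. A floxed Adam10 allele is outside its reach only in cells that never used that promoter and do not descend from cells that did.

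CXCL12 is a chemokine that holds haematopoietic stem cells and lymphoid precursors in the marrow through its receptor CXCR4. Its main source there is a network of perivascular reticular stromal cells, which are marked by the leptin receptor LEPR, also produce the stem cell factor KITL and interleukin 7, and depend on the transcription factors FOXC1 and EBF3. ANGPT1 is a ligand of the endothelial receptor TEK and is made by LEPR-positive stroma among other cells. Chondrocytes and osteoblasts of the growth plate lie against this marrow.

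RefSeq promoter sequences (build GRCm38.p6, 250 bases before to 50 bases after a start site) were found for 6 of the 8 genes, 7 promoters in all, with 2 for Lepr. Those of Cxcl12, Cxcr4, Kitl and Ebf3 are shown, because these 4 genes had the lowest differences and their signals had positive pairwise correlations over the 6 arrays (Pearson r from 0.506 to 0.973). Capitals mark the letters TGGGAA, a core motif of the Notch effector RBPJ, and the TATA box letters TATAAA, each searched on both strands.
Cxcl12: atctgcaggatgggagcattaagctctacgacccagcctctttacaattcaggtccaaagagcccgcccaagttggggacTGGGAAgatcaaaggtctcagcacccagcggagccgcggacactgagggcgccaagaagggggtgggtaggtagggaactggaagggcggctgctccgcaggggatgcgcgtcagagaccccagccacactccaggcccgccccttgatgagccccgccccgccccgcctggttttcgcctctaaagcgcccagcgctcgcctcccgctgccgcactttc
Cxcr4: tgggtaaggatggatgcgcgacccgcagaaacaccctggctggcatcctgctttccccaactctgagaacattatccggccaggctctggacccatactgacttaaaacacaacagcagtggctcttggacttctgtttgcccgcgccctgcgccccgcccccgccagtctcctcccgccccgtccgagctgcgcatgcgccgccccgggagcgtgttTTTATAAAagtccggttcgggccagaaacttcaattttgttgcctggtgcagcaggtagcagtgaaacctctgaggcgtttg
Kitl: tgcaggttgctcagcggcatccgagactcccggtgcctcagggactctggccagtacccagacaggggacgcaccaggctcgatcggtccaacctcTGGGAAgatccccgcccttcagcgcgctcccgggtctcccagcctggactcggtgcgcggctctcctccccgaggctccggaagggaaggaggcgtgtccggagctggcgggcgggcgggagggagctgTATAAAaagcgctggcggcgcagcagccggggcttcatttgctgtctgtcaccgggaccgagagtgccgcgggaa
Ebf3: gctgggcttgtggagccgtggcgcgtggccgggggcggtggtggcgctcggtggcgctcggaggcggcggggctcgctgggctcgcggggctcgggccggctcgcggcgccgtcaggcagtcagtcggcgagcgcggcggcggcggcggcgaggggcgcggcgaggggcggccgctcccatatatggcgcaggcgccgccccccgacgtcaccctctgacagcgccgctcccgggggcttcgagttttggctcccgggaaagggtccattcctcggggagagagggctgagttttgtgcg
The Cxcl12 window lies on the plus strand at chr6:117168285-117168584 and the Kitl window on the plus strand at chr10:100015571-100015870. Those of Cxcr4 and Ebf3 lie on the minus strand at chr1:128592250-128592549 and chr7:137314396-137314695. TGGGAA occurred once in 5 of the 7 windows. It started 170 bases before the start site in Cxcl12 and 154 bases before it in Kitl, and it also lay in both windows of Lepr and in that of Foxc1, which are not shown. Of 32851 promoters of that length, 25.6% held these letters. TATAAA lay 25 bases before the start site of Kitl and 30 bases before that of Cxcr4, where an overlapping copy on the other strand makes the run of capitals longer, and 13.6% of promoters held it. The letters GTAAACA (forkhead, in 3.65% of promoters) and ACGTG (hypoxia response, 19.6%) were not in any of the 7 windows. A match of letters describes the window only.

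The 6 arrays shared 1 slide and 1 day of scanning. Between 62.4% and 65.4% of spots were well above background, and no spot (0) reached saturation. Values are log2 signals relative to the 75th percentile of the array, so 0 is the level of that percentile. Levels of different probes are not set against each other, except in the summed signals of marker lists, where brighter probes weigh more. Adam10 read 0.16, -1.70 and 0.31 in mutants 1 to 3, against 1.62, 1.59 and 1.22 in controls 1 to 3, so every mutant lay below every control. The position of the loxP sites is not given in the labels, and a probe outside the deleted exons would not report the deletion. Col2a1, which encodes collagen II, read between 9.85 and 10.09 in mutants and between 9.96 and 10.10 in controls, and 10 of 10 chondrocyte markers were well above background on all 6 arrays. On the first principal component mutant 2 and control 1 were farthest apart, at 71.0 and -55.3, against -14.0 to 15.2 for the other arrays. Ddx3y, a gene of the Y chromosome, read 2.02 and 2.15 on mutants 1 and 2 and 2.07 and 2.06 on controls 2 and 3. On mutant 3 it read -4.57 and on control 1 -7.34, so each group held arrays with and without high Y-linked signal. Xist, a gene of the X chromosome, read 2.05 on mutant 3 and 1.89 on control 1. It read -7.22 on controls 2 and 3, -7.32 on mutant 2 and -3.65 on mutant 1. The source of the values between these levels, Xist on mutant 1 and Ddx3y on mutant 3, was not tested. The adjusted p from limma was below 0.05 for 0 of the 25494 features in either direction (0% each way). The unadjusted p was below 0.05 for 396 features with mutants higher (1.55%) and 481 with mutants lower (1.89%).

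Cxcl12 had the lowest signal relative to controls of the 7 genes. Its brighter probe, A_51_P172502, gave processed signals of 3872, 1132 and 3176 intensity units in mutants 1 to 3, against 7478, 15491 and 8002 in controls 1 to 3. On the log2 scale these were 2.62, 0.92 and 2.64 in mutants, against 3.67, 4.80 and 3.98 in controls. The groups did not overlap, mutants 1 and 3 lay close together, and mutant 2 was lowest by a wide step. The mean was 2.06 ± 0.99 in mutants and 4.15 ± 0.59 in controls (SD, n = 3 each), a difference of -2.09, or 4.24-fold lower. Ordered from the lowest difference, Cxcl12 stood at rank 16 of the 25494 features. The rank is a description only, as the gene was chosen with earlier results of this comparison known.

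A second probe of Cxcl12, A_55_P1966204, carries the accession of another transcript of the gene. It read -0.11, -1.75 and 0.13 in mutants 1 to 3, against 0.91, 1.56 and 0.74 in controls 1 to 3. Again every mutant lay below every control, with mutant 2 lowest and control 2 highest. The difference was -1.65, or 3.14-fold lower, and the values of the 2 probes had a Pearson correlation of 0.984 over the 6 arrays, which they share. Which splice forms each probe can bind is not stated in the files, so the difference is not assigned to one form. In bulk cartilage, fewer cells of a type and less RNA per cell cannot be told apart.

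**Figure D1:**
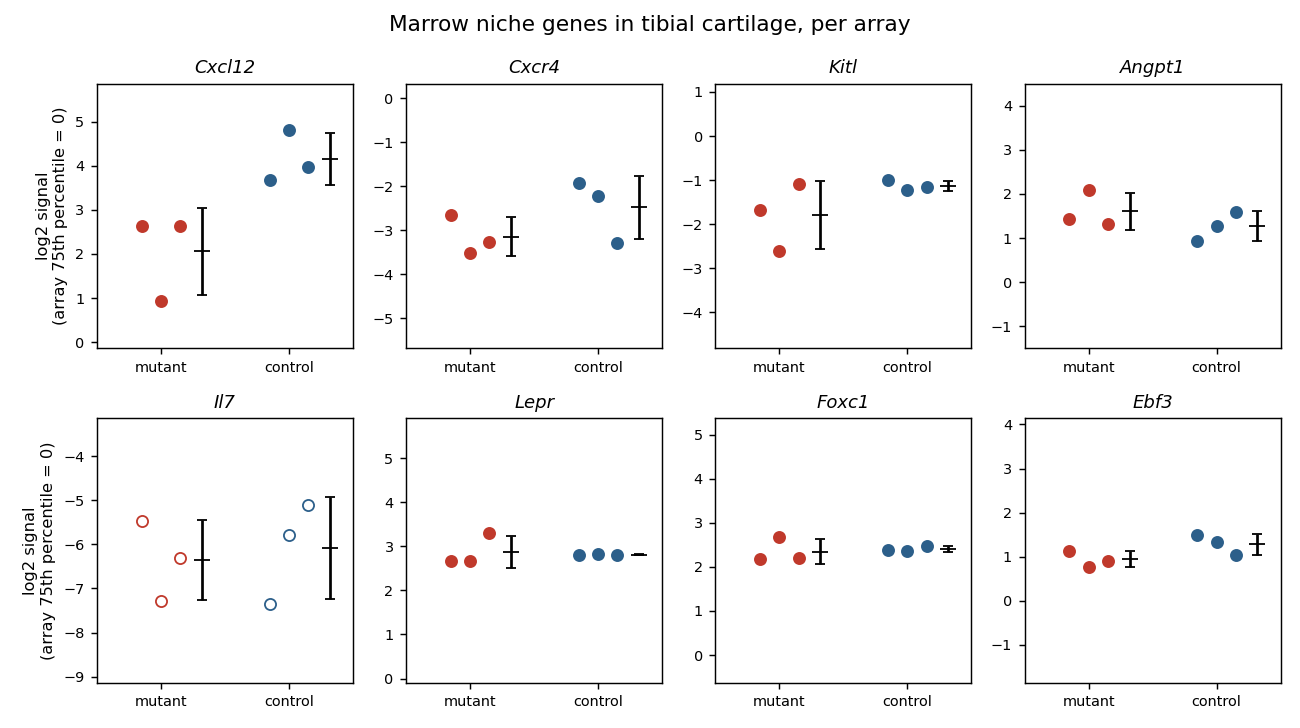
Log2 signal (array 75th percentile = 0) of the brightest probe of each of the 8 niche genes, on axes of equal span, with 1 point per array, mutants left and controls right; bars are mean ± SD (n = 3 each) and open points are arrays of a group in which the probe was never well above background. The groups are apart for Cxcl12 (0.92 to 2.64 in mutants, 3.67 to 4.80 in controls) and overlap for the other genes.

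The receptor Cxcr4 was dim. Its signals were 99.7, 52.4 and 53.2 intensity units in mutants 1 to 3, against 155.2, 118.3 and 52.3 in controls 1 to 3, and all 6 were well above background. The log2 values were -2.66, -3.51 and -3.26 in mutants and -1.92, -2.23 and -3.28 in controls. Control 3 lay within the range of the mutants, so the groups overlapped. The means were -3.14 ± 0.44 in mutants and -2.48 ± 0.71 in controls (SD, n = 3 each), a difference of -0.66. It was -0.38 without control 1 and -1.06 without control 3.

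Kitl encodes stem cell factor, the ligand of the receptor KIT on haematopoietic stem cells, mast cells and melanocytes. It read -1.67, -2.62 and -1.08 in mutants 1 to 3, against -1.01, -1.23 and -1.15 in controls 1 to 3. Mutant 3 lay among the controls, while mutants 1 and 2 lay below them. Controls varied little, at -1.13 ± 0.11, against -1.79 ± 0.77 in mutants (SD, n = 3 each). The difference was -0.66. It was -0.24 without mutant 2 and -1.01 without mutant 3.

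Angpt1 had the highest difference of the 7 genes, in the direction opposite to Cxcl12. Its log2 signal was 1.42, 2.08 and 1.31 in mutants 1 to 3, against 0.92, 1.27 and 1.60 in controls 1 to 3. Mutant 2 was highest and control 1 lowest, and the groups overlapped. The difference was 0.34, with 1.60 ± 0.41 in mutants and 1.27 ± 0.34 in controls (SD, n = 3 each). Without mutant 2 it was 0.10, without control 1 it was 0.17, and with both left out it was -0.07.

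Il7, the cytokine on which B lymphocyte precursors depend, was not measured above background. Its probe gave 14.2, 3.8 and 6.4 intensity units in mutants 1 to 3, against 3.6, 10.1 and 14.8 in controls 1 to 3. None of these 6 values was well above background, so no fold is given.

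The transcription factors of the niche stroma had overlapping groups. Foxc1, the forkhead factor of reticular stroma and of skeletal precursors, read 2.17, 2.67 and 2.20 in mutants 1 to 3, against 2.37, 2.37 and 2.48 in controls 1 to 3. Mutants lay on both sides of the controls, and the difference was -0.06. Ebf3, which marks and maintains the same stroma, read 1.13, 0.77 and 0.91 in mutants, against 1.49, 1.33 and 1.03 in controls. Only mutant 1 reached into the range of the controls. Its means were 0.94 ± 0.18 in mutants and 1.28 ± 0.23 in controls (SD, n = 3 each), a difference of -0.35.

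Lepr had 4 probes, and they disagreed. The brightest, A_55_P2177910, read 2.67, 2.66 and 3.29 in mutants 1 to 3, against 2.80, 2.82 and 2.81 in controls 1 to 3. The controls were nearly identical, mutant 3 was highest, and the difference was 0.07. A_55_P2177911, listed under the same accession, read -2.00, -3.59 and -1.90 in mutants, against -1.95, -1.36 and -1.25 in controls. Here mutant 2 was lowest and mutant 3 lay just inside the controls, with a difference of -0.98. A_55_P2192662 read -2.17, -3.95 and -2.29 in mutants, against -2.09, -1.42 and -1.48 in controls, so the groups did not overlap and the difference was -1.14. The 2 dimmer probes followed each other closely (Pearson r = 0.993 over 6 arrays) and the brightest probe only loosely (r = 0.296 and 0.209). The fourth probe, A_66_P130517, stayed near background, with 0 of 6 arrays well above it. No single direction can be given for Lepr from these probes.

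**Figure D2:**
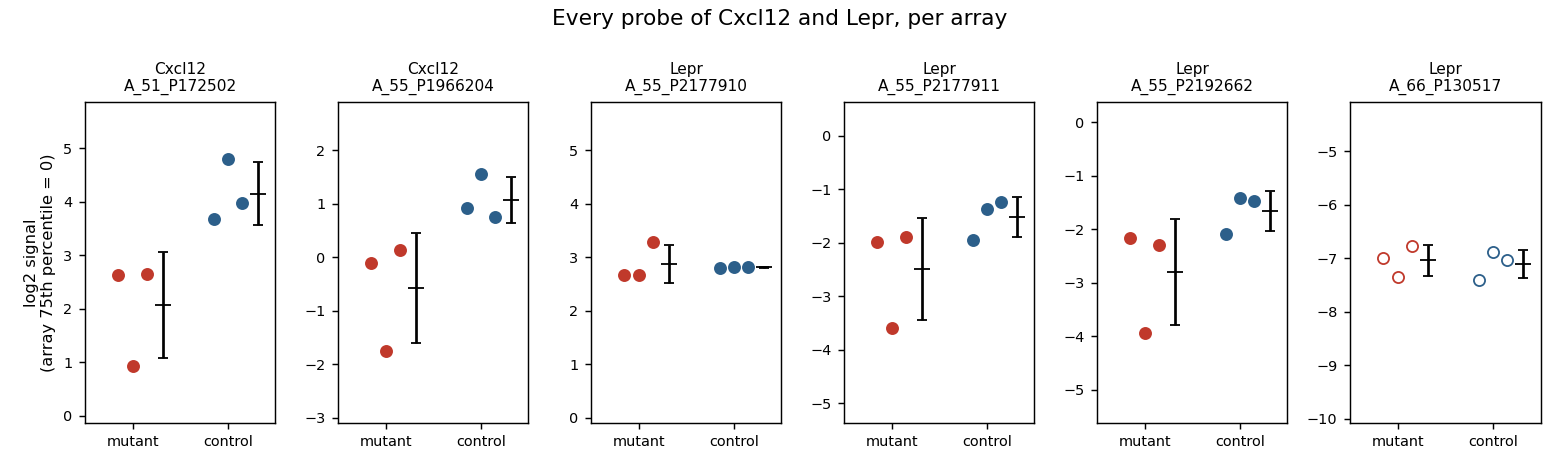
Log2 signal (array 75th percentile = 0) of the 2 probes of Cxcl12 and the 4 probes of Lepr on axes of equal span, with 1 point per array, mutants left and controls right; bars are mean ± SD (n = 3 each), and open points were not well above background. Both Cxcl12 probes separate the groups, while the Lepr probes give differences of 0.07, -0.98 and -1.14 in the 3 panels with filled points.

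Over the 7 tested genes 5 differences were below 0, beside 40.2% of all tested features, and the median was -0.35, beside 0.04 for all tested features. The groups did not overlap for 1 of the 7, Cxcl12, with mutants lower, and the same held for 3.79% of all features. Because the genes were proposed with this contrast in view, nothing is read from these counts. Among the 7 genes the signals of Ebf3 and Cxcr4 followed each other most closely over the 6 arrays (r = 0.973), and those of Kitl and Cxcl12 had r = 0.810. Angpt1 ran against Cxcl12 (r = -0.674), Cxcr4 (-0.826), Kitl (-0.852) and Ebf3 (-0.853). These points share the scaling of each array and the 2 genotypes, and the coefficients are descriptions of 6 arrays.

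The 6 tested genes outside the set whose signal was most like that of Cxcl12 over the 6 arrays had Pearson correlations of 0.991 to 0.997. They were Oscar, a costimulatory receptor of osteoclasts, Upp1 (uridine phosphorylase), Rgs14 (a regulator of G protein signalling), Inhbb (a subunit of activin B and inhibin B), Plcg2 (phospholipase C gamma of blood cells) and Snn (stannin). Oscar had the highest value, at 0.997, and read -1.32, -1.73 and -1.26 in mutants 1 to 3, against -0.96, -0.67 and -0.95 in controls 1 to 3. As with Cxcl12, mutant 2 was lowest and control 2 highest. Differences of these 6 genes ran from -0.68 (Rgs14) to -0.32 (Upp1), all smaller in size than that of Cxcl12. They were picked as the highest of all tested genes, Cxcl12 itself separates the 2 genotypes, and the coefficients serve only to name the genes.

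Marker lists of other cells were set beside the niche genes, and their part in the differences was not tested. Over all tested features, 40.2% of differences were below 0. Macrophage markers were below 0 in 8 of 8 tested cases, and their summed signal, in multiples of the array's 75th percentile, was 7.71 to 27.1 in mutants and 29.5 to 37.2 in controls. In this sum, to which Csf1r gave the most, the groups did not overlap and mutant 2 was lowest, as with Cxcl12. Taken singly, the groups did not overlap for 4 of the 8 genes, mutants lower, beside 3.79% of all features. The groups overlapped for the rest, Adgre1 among them. Adgre1 and Csf1r, defining markers of macrophages, were well above background on all 6 arrays. Endothelial markers were below 0 in 9 of 10 cases, with sums of 32.4 to 70.9 in mutants and 59.9 to 77.5 in controls. Adipocyte markers were below 0 in 8 of 10 cases, with sums of 7.76 to 38.8 in mutants and 25.2 to 41.2 in controls. Mutant 2 was the lowest array for both of these lists. Taken singly, the groups did not overlap for 2 of the 10 endothelial genes, Cdh5 and Emcn, and for 0 of the 10 adipocyte genes. Mutants were lower for Cdh5 and Emcn, beside 3.79% of all features. Nothing is read from such shares in any marker list, as all lists were chosen with earlier results known.

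Lists of blood cells followed another order, in which control 3 sat with the mutants. B lymphocyte markers were below 0 in 8 of 8 cases, with sums of 2.55 to 4.20 in mutants and 3.45 to 11.6 in controls. Pax5 was well above background on 1 array and Rag1 on 2. Neutrophil markers were below 0 in 8 of 9 cases, with sums of 205 to 261 in mutants and 241 to 351 in controls. The neutrophil sums came largely from Csf3r, which differed by 0.03, while the median difference of that list was -1.61. Erythroid markers were below 0 in 8 of 8 cases, with sums of 54.0 to 98.7 in mutants and 53.3 to 293 in controls. On control 3 the mean log2 deviation from the average of the 6 arrays was -0.81 for B lymphocyte, -1.06 for neutrophil and -1.17 for erythroid markers. Cxcl12 on the same array read 3.98, above every mutant. Groups were separate, mutants lower, for 1 of 8 B lymphocyte, 0 of 9 neutrophil and 1 of 8 erythroid genes, beside 3.79% of all features. Osteoblast markers were below 0 in 5 of 9 cases, with sums of 463 to 598 in mutants and 483 to 609 in controls. These sums came largely from Col1a1, which differed by -0.15. The groups did not overlap for 2 of the 9 genes, Dmp1 (-1.65) and Phex (-1.24), mutants lower, beside 3.79% of all features. Both were lowest on mutant 2. Dmp1 and Phex were named after their values were seen, so nothing is read from that share. The defining markers Ibsp (-0.90) and Sp7 (0.20) had overlapping groups, and 4 of the 9 osteoblast differences were above 0. Chondrocyte markers were above 0 in 9 of 10 cases, with sums of 2816 to 3588 in mutants and 2595 to 3081 in controls.

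**Figure D3:**
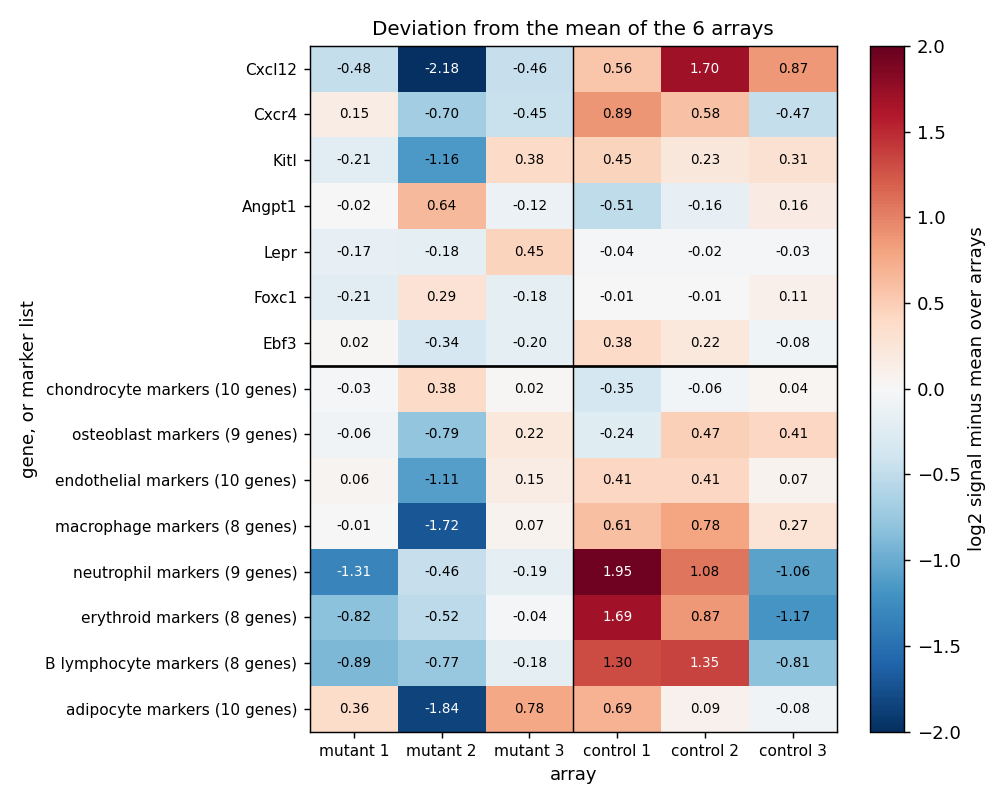
Deviation of log2 signal from the mean of the 6 arrays for the 7 tested niche genes (upper rows) and mean deviation of each list of cell type markers (lower rows), with mutants in the left columns, controls in the right columns and colours ending at -2 and 2. Cxcl12 and the mean of the macrophage markers are lower on every mutant than on every control, while the neutrophil, erythroid and B lymphocyte lists are low on control 3 as well.

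The genes around CXCL12 were taken from a list of its second receptor, its signalling proteins, its proteases and the adhesion molecules of the niche. Of 16 tested genes, limma called 0 higher and 0 lower at an adjusted p below 0.05, as it did over all features. At an unadjusted p below 0.05 it called 2 lower and 0 higher, beside 1.89% and 1.55% of all features. The median difference of all features was 0.04, and that of this list was -0.09. That median was -0.05 without mutant 1 or without control 1, -0.15 without mutant 3, -0.16 without control 2 and -0.22 without control 3. The scavenging receptor Ackr3, which binds CXCL12 and clears it, read 1.74, 1.99 and 1.34 in mutants 1 to 3, against 1.70, 1.79 and 1.22 in controls 1 to 3. Its values overlapped throughout, with a difference of 0.12 (SE 0.23, adjusted p 0.988). Itga4, the integrin chain by which haematopoietic cells hold to VCAM1, read -0.72, -1.81 and -0.34 in mutants, against 0.30, 0.32 and -0.21 in controls. Each mutant was below each control, with a difference of -1.09 (SE 0.39, adjusted p 0.988). Vcam1 itself, carried by reticular stroma and macrophages, differed by -0.55 (SE 0.25), again with separate groups. Arrb1, an adaptor that shuts off receptors such as CXCR4, differed by -0.58 (SE 0.21) with overlapping groups. Ctsg, a neutrophil protease able to cut CXCL12, differed by -1.83 (SE 0.94). Its controls split widely, at 1.34, 1.77 and -1.98, with control 3 lowest as in the neutrophil list. The groups did not overlap, mutants lower, for 3 of the 16 genes, or 18.8%, beside 3.79% of all features. The 3 lists around the niche genes were chosen with earlier results of these data known, so nothing is read from such shares.

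Receptors and relatives of the other niche ligands had differences below 0 in 14 of 15 tested cases, beside 40.2% of all features. All features had a median difference of 0.04, and this list -0.63. Limma called 0 of them in either direction at an adjusted p below 0.05. At an unadjusted p below 0.05, 2 were lower (Il7r and Kit) and 0 higher, beside 1.89% and 1.55% of all features. Il7r passed the filter on dim probes only through the controls, so its place in these counts is not support for a difference. Without mutant 2 the median was -0.20, and among arrays of the slide's first row it was -0.12. Il7r, the receptor chain for interleukin 7, was well above background on 3 control arrays and on 0 mutant arrays. It was at least 2.21-fold lower in mutants, given without a test, with measured means of -6.13 ± 0.72 in mutants and -4.09 ± 0.72 in controls (SD, n = 3 each). Kit, the receptor for KITL, read -2.20, -2.91 and -2.20 in mutants 1 to 3, against -1.72, -1.57 and -2.12 in controls 1 to 3. Its groups did not overlap, although control 3 was close to mutants 1 and 3, and the difference was -0.63 (SE 0.25, adjusted p 0.988).

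The endothelial receptor Tek, which binds ANGPT1, differed by -0.87 (SE 0.52, adjusted p 0.988). It read -2.30, -4.41 and -2.86 in mutants, against -2.41, -2.08 and -2.47 in controls, and mutant 1 lay among the controls. Its relative Tie1 differed by -0.72 (SE 0.45), and Angpt2, the ligand that opposes ANGPT1 at TEK in vessels, by -1.05 (SE 0.46). Both were lowest on mutant 2, as the endothelial marker list was. Il2rg, the signalling chain that partners IL7R, differed by -0.99 (SE 0.43) with separate groups. Groups did not overlap, mutants lower, for 4 of the 15 genes, or 26.7%, Il7r among them, beside 3.79% of all features. Nothing is read from this share, as the list was chosen with earlier results known. Lep and Thpo, genes of leptin and thrombopoietin, were well above background on 0 of 6 arrays.

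The list of reticular stroma genes held 20 tested genes, of which 16 were below 0, beside 40.2% of all features. Limma called 0 higher and 0 lower at an adjusted p below 0.05. At an unadjusted p below 0.05, 1 was lower and 0 higher, beside 1.89% and 1.55% of all features. All features had a median difference of 0.04, and this list had a median of -0.22. The median changed sign with array weights, to 0.004, and without control 1 and mutant 2 together, to 0.05. It was -0.03 without control 1 and -0.13 without mutant 2, and it was -0.34 without control 2, -0.37 without mutant 3 and -0.42 without control 3. It was -0.06 among arrays of the slide's first row and among those with Y-linked signal. Bst1, a surface enzyme of marrow stroma and myeloid cells, read -3.61, -4.90 and -3.50 in mutants 1 to 3, against -2.74, -2.49 and -3.18 in controls 1 to 3. Each mutant lay below each control, a difference of -1.20 (SE 0.40, adjusted p 0.988). Pdgfrb, a receptor of pericytes and reticular cells, differed by -0.43 (SE 0.21) with separate groups, and Pdgfra, which marks skeletal and fibroblastic precursors, by -0.18 (SE 0.21) with overlapping groups. Eng (endoglin, shared by stroma and endothelium) differed by -0.41 (SE 0.22) and Lpl (lipoprotein lipase) by -0.73 (SE 0.42). Groups did not overlap, mutants lower, for 3 of the 20 genes, or 15%, beside 3.79% of all features. This list too was chosen with earlier results known, so nothing is read from that share.

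The groups overlapped for relatives of the transcription factors. Ebf1, which acts in B lymphocytes as well as stroma, differed by -0.31 (SE 0.23), and Ebf2, known from mesenchymal and brown fat precursors, by -0.20 (SE 0.73). The single values of Ebf2 ran from -3.09 to -1.58 in mutants and from -2.96 to -0.40 in controls. Grem1, a BMP antagonist of skeletal stem cells, differed by 0.20 (SE 0.39). Adipoq, which encodes the fat hormone adiponectin and is also transcribed by reticular stroma, read -0.64, -3.83 and -0.87 in mutants 1 to 3, against 0.07, -1.08 and -1.72 in controls 1 to 3. Mutants 1 and 3 lay within the range of the controls, and the difference was -0.87 (SE 0.92). The adjusted p was 0.988 for Ebf1, Grem1 and Adipoq and 0.990 for Ebf2.

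**Figure D4:**
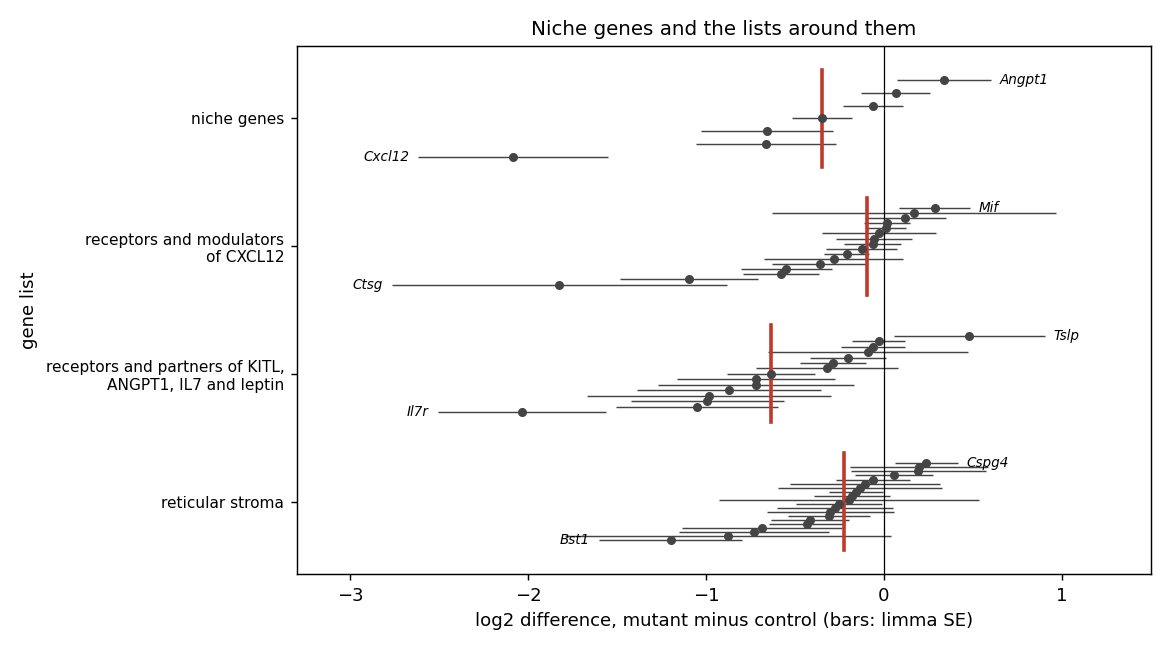
Log2 difference, mutant minus control, of each tested gene in the niche set and in the 3 lists around it; points are fitted differences, bars are limma SEs (n = 3 each) and the red line is the median of a list. Medians lie at -0.35, -0.09, -0.63 and -0.22 from top to bottom, and the lowest points are Cxcl12 at -2.09 and Il7r at -2.03, and Il7r is fitted on a probe that was not above background in mutants.

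The difference of Cxcl12 kept its sign in 20 of 20 other settings and stayed between -2.62 and -1.52. As its groups did not overlap, leaving out arrays could not change that sign. The replicate block, the Y-linked block and both other filters on dim probes returned the same -2.09. The count of 20 is therefore not support for the difference. The smallest size of the Cxcl12 difference came without mutant 2, at -1.52. The first row of the slide, which held mutant 1 and all 3 controls, gave -1.53. Without both mutant 2 and control 1 it was -1.76. With normexp background correction and percentile scaling it was -2.02. Differences of Cxcr4, Kitl and Ebf3 also kept their sign in 20 of 20 settings but came as close to 0 as -0.18, -0.18 and -0.15. The sign changed in 6 of 20 settings for Lepr, in 2 for Foxc1 and in 1 for Angpt1.

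**Figure D5:**
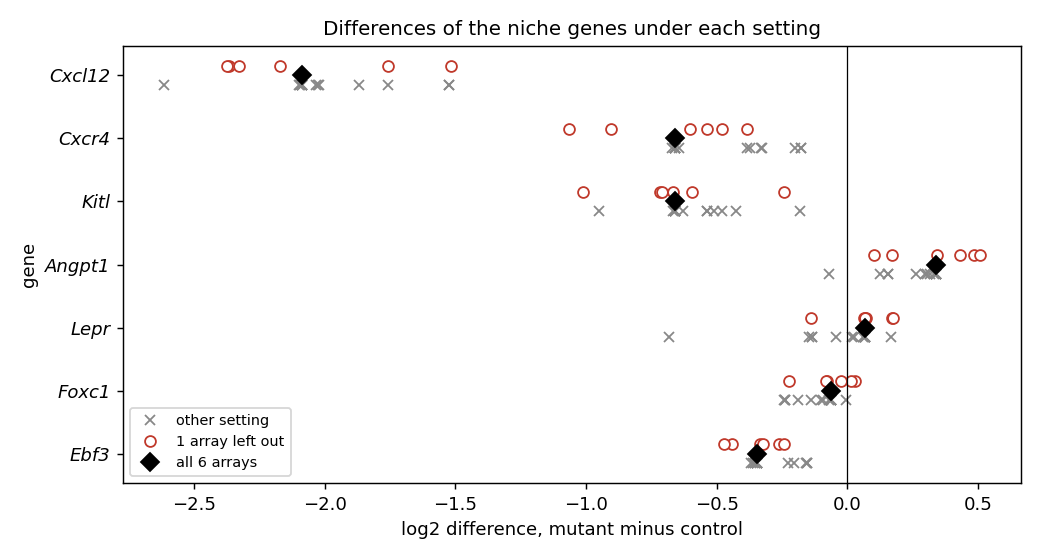
Log2 difference, mutant minus control, of the 7 tested niche genes with all 6 arrays (diamond), with 1 array left out (open circles) and under the other settings (crosses). Cxcl12 stays between -2.62 and -1.52, while Lepr, Foxc1 and Angpt1 have points on both sides of 0.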

How the data were processed

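RNA from each mouse was labelled and hybridised to a 1-colour Agilent mouse array. The labelling protocol names Cy3, while the label field of the samples names Cy5, and the file headers record 1 channel. The deposited scanner files hold intensity values: per the file headers, Agilent Feature Extraction 10.7.1.1 made a background-subtracted processed signal and the raw median spot and background signals, with no scaling between arrays, on a design that refers to mm9. The deposited value table holds a ratio to each array's 75th percentile, as read from its values (75th percentile 1, medians 0.094 to 0.104, correlation of log2 values with the scaled processed signal 1.00). Its making is not given in the sources used here.

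Control spots (leaving 59305) and outlier spots were dropped. Processed signals were put on the log2 scale, the array's 75th percentile was subtracted, and spots of a probe were averaged. Probes well above background on at least 3 of 6 arrays, with more than 50% of their spots, were kept, and the brightest probe stood for a gene. Accessions without version were matched to RefSeq symbols of GRCm38.p6, which named 27656 of 55681 probes. Limma 3.58.1 in R 4.3.3 (lmFit, eBayes, two-sided, Benjamini-Hochberg over all 25494 features, threshold 0.05) compared the groups, and the fit was tested on simulated data. For a probe above background in only 1 group, the fold is a lower bound: on each array of the dim group the probe counted at no less than the dimmest probe that was well above background there. The number of arrays limits the precision.

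The niche genes and all lists were chosen with earlier results of these data known. Named are the niche genes with every probe, Adam10 and Col2a1, and 11 receptor and stroma genes set by name. Also named are up to 3 further genes per list with the smallest unadjusted p, the 6 genes most correlated with Cxcl12, and list markers. Pax5, Rag1, Lep, Thpo, Ddx3y, Xist, Csf3r, Col1a1, Dmp1 and Phex were added after their values were seen. The series text says that replicates are separate mice. Samples were grouped by title. Alternatives covered background correction, scaling, dim probes, gene summary, the deposited ratio table, array weights, a replicate block, each array left out, slide row and Y-linked signal, and, chosen after seeing the data, leaving out control 1 and mutant 2 together. Same-numbered mutants and controls had deviations correlated at 0.21, 0.06 and -0.16, so the numbers do not pair the mice.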

Additional observations from a re-analysis of the deposited data

How the results depend on the processing

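With array weights limma called 2 features higher and 3 lower, and in the other 19 settings 0 in each direction. The 3 lists had 0 genes called in all 20 settings. The median difference of the 7 niche genes was -0.35. It was -0.66 with the mean of a gene's probes, -0.20 with array weights, -0.18 with slide row as a block and -0.18 within the first row of the slide (the second row holds only mutants), and -0.18 without control 1 and mutant 2 together. With 1 array left out it ran from -0.47 (without control 3) to -0.24 (without control 1). The cause of these shifts was not tested, except that the mean of probes takes in the dimmer Lepr probes. It stayed within 1 SD of the arrays under the other alternatives, and 4 to 6 genes were below 0. The replicate block left the median at -0.35 and the count of called features at 0, and not every sample correlated best with its own number. The Lepr difference was -0.68 with the mean of probes, -0.14 without mutant 3, -0.04 with array weights, -0.14 within the first slide row and with slide row as a block, and -0.15 on arrays with Y-linked signal. Foxc1 was 0.03 without mutant 1 and 0.01 without mutant 3. Angpt1 was -0.07 without control 1 and mutant 2 together. Signal over background limits Il7, Il7r and the fourth Lepr probe.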
